A study of Arabidopsis thaliana with 6 samples.

Results

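The expansin superfamily of Arabidopsis thaliana was examined in RNA sequencing libraries of mature stems, from plants titled as mutated in γVPE and from wild type plants. Its 36 members were taken by locus: EXPA1 to EXPA26 (α-expansins), EXPB1 to EXPB6 (β-expansins), EXLA1 to EXLA3 (expansin-like A) and EXLB1 (expansin-like B). Of these, 35 had a row in the deposited table of 34484 identifiers, and EXPA19, which RefSeq annotates as a transcribed pseudogene, was not analysed here. The mutant and the wild type stems shared the labelled stage of 42 days after flowering, and all plants were grown at 20 °C with 16 h light and 8 h dark. The labels do not describe the mutant allele.

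Expansins are secreted wall proteins that loosen the bonds between cellulose and its matrix polysaccharides without cutting them. They act best at acid pH, which plasma membrane proton pumps create in the wall, so growing cells extend when the wall is acidified. Most named functions in Arabidopsis come from elongating or separating organs such as root hairs, lateral roots, petioles, pedicels and germinating seeds. No wall-loosening activity is established for the expansin-like proteins.

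There were 3 libraries in each set. The values were FPKM, fragments per kilobase of gene scaled to the library's total. That scaling total, recovered from the steps between low values, was 40307737 to 51012957 counts, and 1 count in a gene of 1 kb was worth 0.0196 to 0.0248 FPKM. The wild type titles match the columns headed WT. The columns headed WT_V were assigned to the mutant as the only set left, since the header does not name the genotype. GAMMA-VPE itself (AT4G32940) measured 328.1, 328.1 and 325.4 FPKM in WT_V and 163.1, 164.4 and 162.7 FPKM in WT. Its transcript therefore did not mark WT_V as the mutant, and every direction below is that of the WT_V columns relative to the WT columns. The titles number the libraries as replicates, yet the series design denies replication and no label names separate plants. The p-values thus measure the spread among these libraries, which may be technical.

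Markers of several other organs, and of stem xylem, differed between the sets. The 8 seed markers (12S globulins, 2S albumins and OLEO1) summed to 15260 to 15520 FPKM in WT_V and to 0 to 0.0353 FPKM in WT, where 7 of them were at 0 in each library. All 6 flower markers were called higher in the test described below, as were 51.9% of all genes tested. Their sums were 118.5 to 123.7 FPKM in WT_V and 27.95 to 31.13 FPKM in WT. AG, a flower marker, averaged 0.605 FPKM in WT and entered the test through WT_V alone. The 3 pollen markers summed to 12.4 to 12.8 FPKM in WT_V and 0.105 to 0.146 FPKM in WT, and the 3 fruit markers to 20.1 to 21.4 FPKM in WT_V and 7.79 to 8.86 FPKM in WT. The 4 stem xylem markers (CESA4, CESA7, CESA8 and LAC4) were called higher too, summing to 100.8 to 107.3 FPKM in WT_V and 31.55 to 32.52 FPKM in WT. The 3 root hair markers were near the limit of detection, summing to 0.0444 to 0.138 FPKM in WT_V and 0 in WT. The part of these organs and of xylem in the expansin differences was not tested. In whole-stem RNA a change in the number of cells of a type and a change in RNA per cell cannot be told apart.

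The subfamilies differ in a short stretch of the first domain, where the residues histidine, phenylalanine and aspartate form the HFD motif that gives α- and β-expansins a glycosidase-like site. The coding bases at that place were aligned through the translated proteins and are shown for the most abundant called member of each subfamily. EXPA13 is shown as an α-expansin without the motif, EXLA3 as the nearest relative of EXLA1, and EXPA23 and EXPA25 as near-identical copies. Capitals mark the 3 codons aligned with HFD, and each stretch has 45 bases, read 5′ to 3′ on the coding strand from RefSeq TAIR10.1.
EXPA1, chr1:26142480-26142524, plus strand: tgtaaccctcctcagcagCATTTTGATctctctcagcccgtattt
EXPA13, chr3:743538-743582, minus strand: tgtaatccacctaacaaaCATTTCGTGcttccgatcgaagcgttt
EXPB3, chr4:14001460-14001504, minus strand: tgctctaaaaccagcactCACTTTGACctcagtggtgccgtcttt
EXLA1, chr3:16896608-16896652, plus strand: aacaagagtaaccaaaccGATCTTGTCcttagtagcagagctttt
EXLA3, chr3:16893208-16893252, plus strand: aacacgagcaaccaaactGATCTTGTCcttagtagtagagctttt
EXLB1, chr4:9582354-9582398, minus strand: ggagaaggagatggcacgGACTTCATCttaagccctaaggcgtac
EXPA23, chr5:15731070-15731114, minus strand: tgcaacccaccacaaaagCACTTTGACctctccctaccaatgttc
EXPA25, chr5:15737784-15737828, minus strand: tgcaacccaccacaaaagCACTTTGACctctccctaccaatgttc

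Of the 35 members with a coding sequence, 28 encoded HFD at this place and 7 did not. The 7 were EXPA13, EXPA20, EXPB4, EXLB1 and all 3 EXLA genes. All stretches lie within 1 coding exon each. The EXPA23 and EXPA25 stretches were identical. Over their whole coding sequences that pair shared 97.5% of aligned bases, and EXPA22 and EXPA26 shared 97.8%. Reads from such copies can be split or dropped in counting, so the values of these 4 genes are uncertain one by one.

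The family as a whole was higher in WT_V, and its make-up differed. Summed over the members, WT_V libraries held 486.1, 484.7 and 478.4 FPKM and WT libraries 253.4, 255.5 and 249.5 FPKM. The 2 sets do not overlap, and the WT_V mean was 1.91 times the WT mean. The EXPA genes made up 76.8 ± 0.463% of the sum in WT_V and 85.0 ± 0.231% in WT (SD, n = 3 each). The EXLA genes made up 13.0 ± 0.872% in WT_V and 6.01 ± 0.469% in WT. EXLA1 alone gave 11.4 ± 1.004% of the sum in WT_V and 3.35 ± 0.252% in WT. The EXPB genes gave 7.33 ± 0.288% in WT_V and 5.67 ± 0.449% in WT. EXLB1 gave 2.83 ± 0.293% in WT_V and 3.34 ± 0.121% in WT. These sums and shares are descriptions of the libraries and were not tested.

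**Figure D1:**
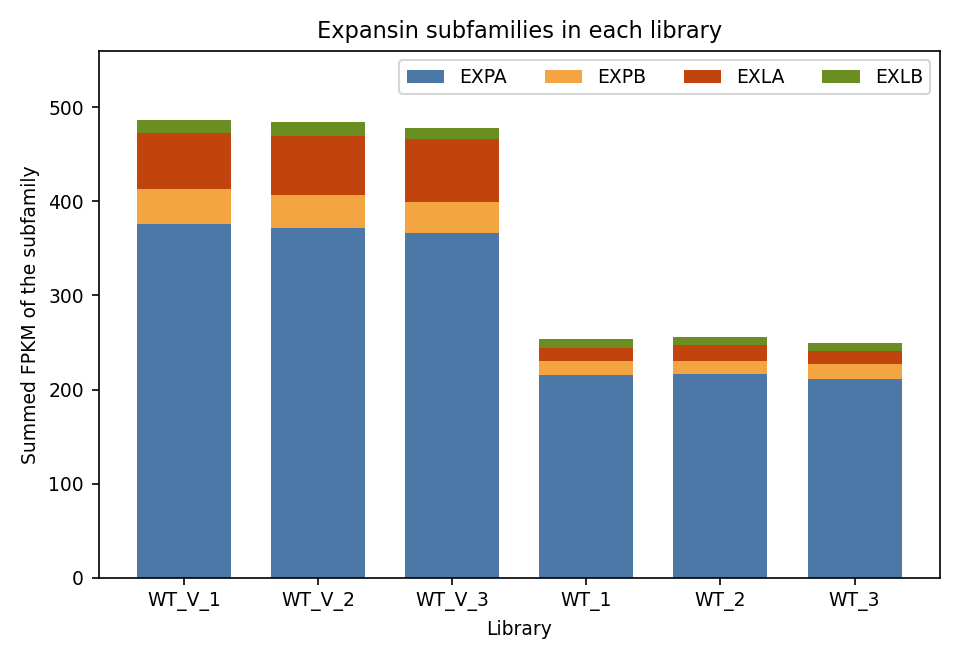
Stacked bars give the summed FPKM of the EXPA, EXPB, EXLA and EXLB genes in each library, with the WT_V libraries on the left. The whole bars reach 478.4 to 486.1 FPKM in WT_V and 249.5 to 255.5 FPKM in WT, and the EXLA segment takes the larger share in WT_V.

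Of the 35 members, 17 reached a mean of 1 FPKM over the 6 libraries and were tested with limma on log2(FPKM + 1), together with all other genes that passed. An adjusted p under 0.05 is called here. Called higher in WT_V were 14 members, called lower 0, and not called 3 (EXPA8, EXLA2 and EXLA3). Across all 19144 genes tested, 51.9% were called higher and 24.1% lower, so the members' count is to be read against a table in which most genes were called. The median log2 difference of the 17 members was 0.71, against 0.17 for all genes tested. Values of all 3 WT_V libraries lay above all 3 WT libraries for 15 members, and for 53.1% of all genes tested. A log2 difference of 1 or more was called for 6 members (EXPA4, EXPA5, EXPA9, EXPB1, EXPB3 and EXLA1), and for 10.8% of all genes. EXPB1 averaged under 1 FPKM in WT and entered the test through WT_V alone. Relative to the general shift, 16 of the 17 differences were above the median of all genes, which by definition has as many genes above as below. The 16 include EXLA2 (0.174) and EXLA3 (0.199), which were not called and lay close to the median of 0.167. Scaling by median of ratios brought that median to 0.014, and quantile normalization brought it to -0.09. The members called higher then numbered 13 under either scaling. Called lower were 0 members under the first scaling and 3 under quantile normalization. These 3 were EXPA8 (-0.201), EXLA2 (-0.276) and EXLA3 (-0.713), all below the median of -0.09. That median is not the shift of each gene. Quantile normalization took EXPB1 from 1.415 to 0.744 and EXPA1 from 0.803 to 0.806. Of all genes tested, 37.9% were then called higher and 35.5% lower by median of ratios, and 29.8% higher and 44.9% lower after quantile normalization.

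**Figure D2:**
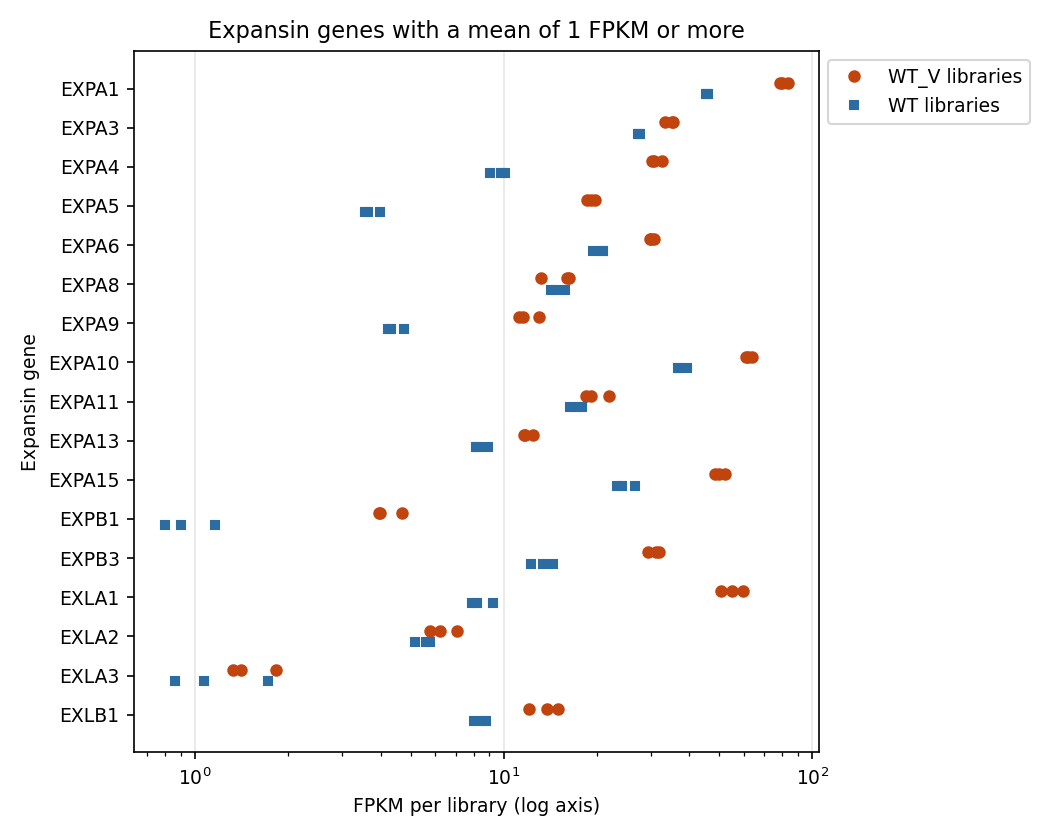
Points give the FPKM of each of the 17 tested expansin genes in each library on a log axis, circles for WT_V and squares for WT. The sets lie apart for 15 genes and overlap for EXPA8 and EXLA3, and the widest gap is that of EXLA1.

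The 3 most abundant α-expansins of WT_V were all higher there than in WT. EXPA1 (AT1G69530), known from guard cells and growing shoot organs, had 83.2, 78.6 and 79.5 FPKM in WT_V and 46.1, 45.8 and 45.2 FPKM in WT. EXPA10 (AT1G26770), known from leaf growth and the base of the pedicel, had 60.8, 63.6 and 62.1 FPKM in WT_V and 36.7, 39.3 and 37.1 FPKM in WT. EXPA15 (AT2G03090) had 52.1, 48.5 and 49.9 FPKM in WT_V and 26.7, 23.3 and 24.2 FPKM in WT. No WT library reached the lowest WT_V library for any of these. The log2 differences were 0.80 ± 0.029 for EXPA1, 0.71 ± 0.034 for EXPA10 and 0.99 ± 0.050 for EXPA15 (SE, limma adjusted p = 1.29e-09, 1.36e-08 and 1.77e-08). EXPA1 and EXPA10 ranked first and second of the family in each set. EXPA15 ranked 4 in each set, and the place above it was held by EXLA1 in WT_V and by EXPA3 in WT.

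The α-expansins with the greatest differences were at moderate levels in WT. EXPA5 (AT3G29030), known from brassinosteroid-promoted growth, had 19.8, 19.2 and 18.6 FPKM in WT_V and 3.56, 3.97 and 3.64 FPKM in WT. EXPA4 (AT2G39700), known from pollen tube growth, had 32.6, 30.7 and 30.4 FPKM in WT_V and 9.05, 10.1 and 9.77 FPKM in WT. EXPA9 (AT5G02260) had 11.2, 13.0 and 11.6 FPKM in WT_V and 4.30, 4.22 and 4.77 FPKM in WT. The sets lay well apart for all 3 genes. The WT_V mean was 5.16 times the WT mean for EXPA5 (log2 difference 2.10 ± 0.059, adjusted p = 1.52e-10). It was 3.24 times for EXPA4 (1.60 ± 0.051, adjusted p = 4.21e-10) and 2.69 times for EXPA9 (1.25 ± 0.072, adjusted p = 5.68e-08).

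Other α-expansins differed less. EXPA6 (AT2G28950) had 30.1, 30.6 and 29.8 FPKM in WT_V and 20.8, 21.0 and 19.5 FPKM in WT. EXPA3 (AT2G37640) had 35.5, 35.1 and 33.4 FPKM in WT_V and 27.5, 27.6 and 27.3 FPKM in WT. EXPA13 (AT3G03220), the α-expansin without the HFD codons among the tested genes, had 11.7, 12.5 and 11.7 FPKM in WT_V and 8.89, 8.13 and 8.27 FPKM in WT. These 3 genes were separate between the sets and were called higher, at log2 differences of 0.54 ± 0.040, 0.33 ± 0.035 and 0.46 ± 0.057 (adjusted p = 4.45e-07, 9.6e-06 and 2.8e-05). Scaling by median of ratios lowered EXPA3 to 0.16 and EXPA13 to 0.30, and quantile normalization lowered EXPA13 to 0.16 (adjusted p = 0.0279), all still called. EXPA11 (AT1G20190) had 19.2, 18.5 and 22.0 FPKM in WT_V and 17.9, 17.4 and 16.4 FPKM in WT, a log2 difference of 0.19 ± 0.064 (adjusted p = 0.0171). EXPA11 lost that call under both other scalings (adjusted p = 0.671 by median of ratios and 0.881 after quantile normalization). It also lost it when replicate 3 of WT_V (adjusted p = 0.0701) or of WT (adjusted p = 0.0616) was left out. EXPA8 (AT2G40610) had 16.3, 16.1 and 13.2 FPKM in WT_V and 14.2, 15.8 and 14.8 FPKM in WT. Its sets overlap, and its log2 difference of 0.02 ± 0.076 was not called (adjusted p = 0.829). With quantile normalization it was -0.20 and called lower (adjusted p = 0.0407).

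**Figure D3:**
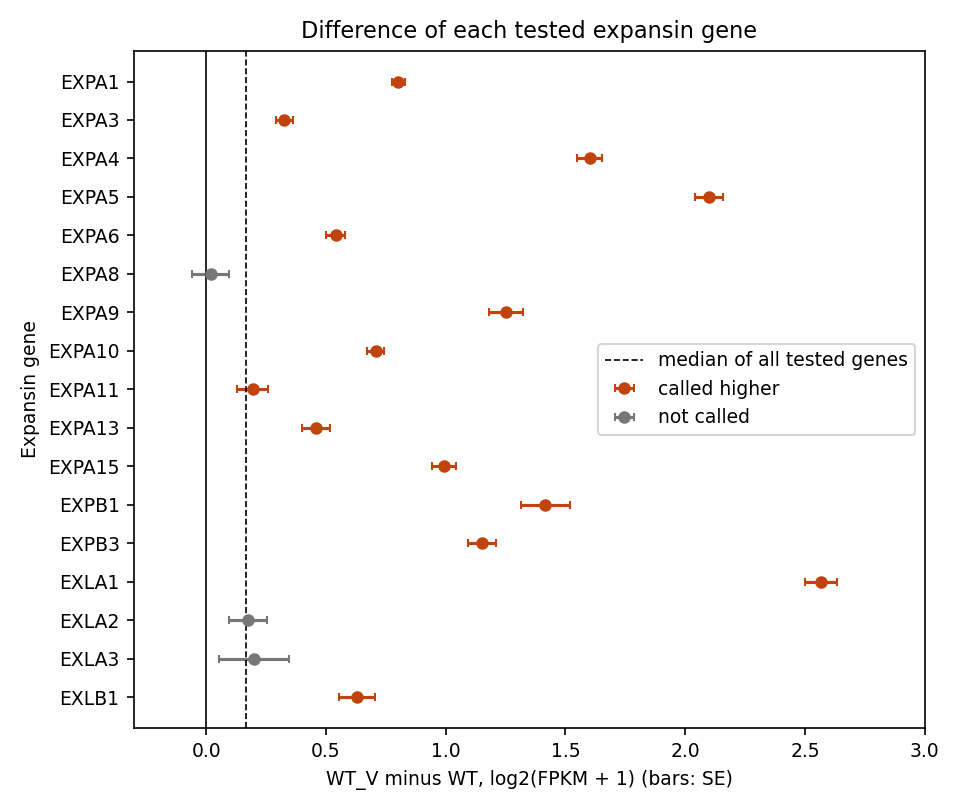
Points give the log2 difference, WT_V minus WT, of each tested expansin gene on the log2(FPKM + 1) scale, with bars for the SE, a solid line at 0 and a dashed line at the median of all genes tested. EXLA1 and EXPA5 lie farthest right, while EXPA11, EXLA2 and EXLA3 lie near the dashed line at 0.17 and EXPA8 lies near 0.

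Both tested β-expansins were higher in WT_V. In flowering plants the β-expansins include the group of grass pollen allergens, while the Arabidopsis genes are expressed in several organs. EXPB3 (AT4G28250) had 31.9, 31.2 and 29.4 FPKM in WT_V and 13.4, 12.2 and 14.4 FPKM in WT, a log2 difference of 1.15 ± 0.058 (adjusted p = 1.9e-08). EXPB1 (AT2G20750) had 4.70, 3.96 and 3.96 FPKM in WT_V and 0.802, 1.16 and 0.903 FPKM in WT, a log2 difference of 1.42 ± 0.102 (adjusted p = 3.44e-07). For EXPB1 a pseudocount of 5 gave 0.63 and quantile normalization gave 0.74, both still called. EXPB3 was by far the more abundant, with 6.38% of the family sum in WT_V against 0.871% for EXPB1.

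Of the EXLA genes, whose proteins are close, only EXLA1 was called higher with all libraries in the fit. EXLA1 (AT3G45970) had 50.8, 54.8 and 59.6 FPKM in WT_V and 7.92, 9.25 and 8.21 FPKM in WT, so the lowest WT_V library stood far above the highest WT library. The mean in WT_V was 6.51 times that in WT, and the log2 difference of 2.57 ± 0.066 (adjusted p = 7.55e-11) was the greatest of the 17 tested members. EXLA2 (AT4G38400), known from responses to necrotrophic fungi, had 7.08, 6.22 and 5.79 FPKM in WT_V and 5.62, 5.75 and 5.18 FPKM in WT. The sets for EXLA2 touch closely without overlap, and the log2 difference of 0.17 ± 0.079 was not called (adjusted p = 0.0682), though it was without WT_V replicate 3 (0.23, adjusted p = 0.0349). EXLA3 (AT3G45960) had 1.41, 1.84 and 1.32 FPKM in WT_V and 0.862, 1.72 and 1.07 FPKM in WT. Its sets overlap and its log2 difference was 0.20 ± 0.146 (adjusted p = 0.234), and without WT replicate 2 it was 0.36 and called (adjusted p = 0.0303). With quantile normalization EXLA2 (-0.28, adjusted p = 0.0104) and EXLA3 (-0.71, adjusted p = 0.00197) were called lower. EXLB1 (AT4G17030) had 13.8, 15.1 and 12.1 FPKM in WT_V and 8.75, 8.57 and 8.01 FPKM in WT, a log2 difference of 0.63 ± 0.075 (adjusted p = 2.07e-05). After quantile normalization the difference of EXLB1 was 0.345, still called.

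Close relatives were compared within each library, where the ratio of 2 genes does not depend on the factor by which a library is scaled. Quantile normalization, which is not such a factor, can change these ratios. The pairs were members that are each other's nearest relative by protein identity among the tested members alone. EXLA1 with EXLA2 was added, chosen after the values were seen. EXLA1 and EXLA3 share 86.3% of aligned residues and lie on chromosome 3 in the same orientation with 1 gene between them. EXLA1 stood at 36.04, 29.83 and 45.02 times EXLA3 in WT_V and at 9.19, 5.37 and 7.69 times in WT. Against EXLA2, with 85.6% identity, EXLA1 stood at 7.17, 8.81 and 10.3 times in WT_V and at 1.41, 1.61 and 1.59 times in WT. In both pairs the lead of EXLA1 was larger in every WT_V library than in any WT library. EXPA4 stood at 1.083, 1.002 and 1.019 times EXPA6 in WT_V and at 0.434, 0.480 and 0.501 times in WT, so the genes were level in WT_V while EXPA4 was the lower in WT. EXPB1 stood at 0.147, 0.127 and 0.135 times EXPB3 in WT_V and at 0.0599, 0.0947 and 0.0627 times in WT. EXPB1 had entered the tested members through WT_V alone. For these 4 pairs the exact two-sided permutation test on the log2 ratio gave p = 0.1 each, and 0.125 after Benjamini-Hochberg adjustment over 5 pairs. A p of 0.1 is the smallest that 3 against 3 libraries allow, so the test could call no pair. The ratios come from the same values as the single-gene differences above and add no separate evidence. EXPA1 and EXPA10, with 84.3% identity, stood in nearly the same ratio in both sets. Their ratio was 1.37, 1.24 and 1.28 in WT_V and 1.26, 1.16 and 1.22 in WT, which overlap (exact permutation p = 0.2, adjusted 0.2).

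Members with and without the HFD codons covered overlapping ranges of difference. Of the 17 tested members 12 encoded HFD and 5 did not. Those without it included the greatest difference (EXLA1, 2.57) and 2 of the 3 that were not called (EXLA2 and EXLA3). Those with it ran from 0.02 for EXPA8 to 2.10 for EXPA5.

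The remaining 18 members averaged under 1 FPKM, and 5 of them (EXPA18, EXPA22, EXPA26, EXPB2 and EXPB6) were at 0 in all 6 libraries. Of 13 with any value, 7 had all WT_V libraries above all WT libraries, as did 39.5% of the 8093 identifiers that had a value above 0 and averaged under 1 FPKM. With no filter on low values, 30 members were tested and 20 were called higher and 0 lower. Of the 27237 identifiers then tested, 12379 (45.4%) were called higher and 4596 lower. The added calls were EXPA14, EXPA16, EXPA21 (close to the threshold, limma adjusted p = 0.0452), EXPA23, EXPA25 and EXPB5. For many of these genes the FPKM values could be turned back into whole counts, which are given where they could.

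EXPA23 (AT5G39280) showed the plainest contrast among the scarce members. It had 1.49, 1.61 and 1.42 FPKM in WT_V, from 68, 76 and 62 counts, and 0.0269, 0 and 0 FPKM in WT, from 1 count in all. Scaled to the totals, the ratio of counts was 178, with an exact 95% interval of 31.6 to 7070 that covers counting error only. EXPA25 (AT5G39300), its near-identical copy, had 8, 30 and 28 counts in WT_V and 0 in each WT library. Against a floor of 3 counts over the WT set that is 19.0-fold higher. This value takes the WT_V counts as exact and is not a lower limit. EXPA21, in the same tandem group, had 14, 51 and 20 counts in WT_V and 4, 1 and 10 in WT. EXPA22, EXPA24 and EXPA26 of that group had 1 count among them, in WT. The 6 genes EXPA21 to EXPA26 follow one another on chromosome 5 with no other gene between them, all on the minus strand.

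EXPA16 (AT3G55500), the nearest relative of EXPA4, had 28, 27 and 43 counts in WT_V and 4, 5 and 1 in WT. EXPA14 (AT5G56320), known from lateral root development, had 0.656, 0.766 and 0.333 FPKM in WT_V and 0.0373, 0.194 and 0.183 FPKM in WT. EXPB5 (AT3G60570), known with EXPA4 from pollen tube growth, had 0.308, 0.337 and 0.235 FPKM in WT_V and 0.0251, 0 and 0 FPKM in WT. All 3 genes were separate between the sets. EXPB4 had 1, 9 and 2 counts in WT_V and 0 in WT, and was not called (adjusted p = 0.14 with no filter). Its WT_V sum, mostly from 1 library, was 3.46-fold higher against the same floor of 3 counts, again not a lower limit. EXPA12 (0.196 to 0.388 FPKM in WT_V and 0 to 0.333 FPKM in WT) and EXPA20 (16 counts in WT_V and 8 in WT) overlapped between the sets.

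Some members known from roots and germinating seeds were at or near the limit of detection. EXPA7 and EXPA18, which act in root hair initiation, had 1 count in WT_V and none in WT between them, and of the root hair markers RSL4 was at 0 in all libraries. RHD6, another regulator of root hairs, had 0.07115, 0.1375 and 0.0444 FPKM in WT_V and 0 in each WT library, and COBL9 was above 0 in 1 WT_V library. EXPA17, known from lateral root emergence, had 2 counts, both in WT_V. EXPA2, which acts in seed germination, had 4, 0 and 1 counts in WT_V and 0 in WT, in libraries where the seed storage markers were very high in WT_V. None of EXPA2, EXPA7 and EXPA17 was called with no filter (adjusted p = 0.331, 0.806 and 0.654), and a difference was not detectable at this depth.

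**Figure D4:**
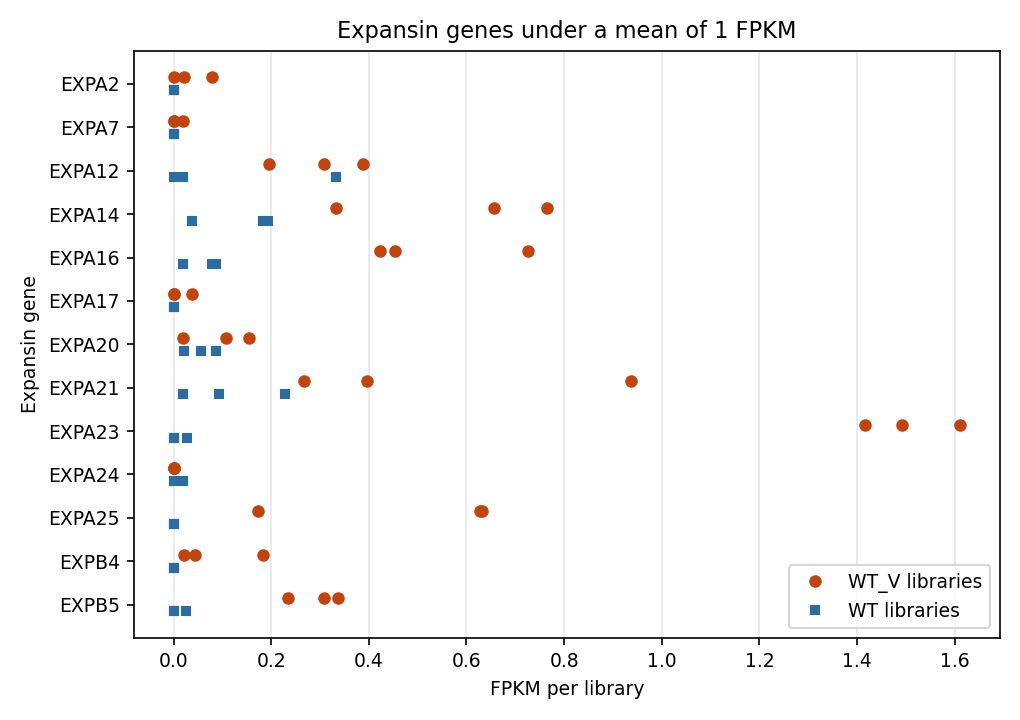
Points give the FPKM in each library of the 13 expansin genes that had a value above 0 but averaged under 1 FPKM, circles for WT_V and squares for WT. EXPA23 stands apart at 1.42 to 1.61 FPKM in WT_V with 0 to 0.0269 FPKM in WT, while EXPA2, EXPA7, EXPA17 and EXPA24 lie at or near 0 in every library.

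Expansins act best at acid pH, so the AHA proton pump genes and their regulators were counted next. The genes that make xyloglucan, a matrix glucan bound to cellulose, were counted beside them. Where each pump acts in the cell was not tested, so the pump count is not a count of wall acidification. Of the 11 proton pump genes AHA1 to AHA11, 9 were tested, 6 were called higher and 0 lower (median log2 difference 0.50). Of all genes tested, 51.9% were called higher and 24.1% lower. The greatest difference was in AHA4, at 10.8, 10.4 and 10.6 FPKM in WT_V and 0.537, 0.626 and 0.654 FPKM in WT (log2 difference 2.85 ± 0.075, adjusted p = 9e-11). AHA4, like EXPB1, averaged under 1 FPKM in WT and entered the test through WT_V alone. AHA3, known from phloem companion cells, had 52.8, 51.6 and 52.0 FPKM in WT_V and 30.9, 29.8 and 28.4 FPKM in WT (0.79 ± 0.036, adjusted p = 7.73e-09). AHA8 differed by 0.55 ± 0.066 (adjusted p = 2.16e-05), and lost its call with quantile normalization (adjusted p = 0.152). AHA10 differed by 0.499 ± 0.111 (adjusted p = 0.00194), and turned to -0.255 with quantile normalization, not called (adjusted p = 0.0577). AHA1, the most abundant pump, had 270.2, 264.6 and 269.7 FPKM in WT_V and 264.8, 260.5 and 263.1 FPKM in WT and was not called (adjusted p = 0.146). Scaling by median of ratios made AHA1 lower (-0.14, called), while quantile normalization made it higher (0.25, called). Each of these scalings called 2 pumps lower, AHA5 under both, where 35.5% and 44.9% of all genes tested were called lower.

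The regulators of the pumps were counted beside the 51.9% higher and 24.1% lower of all genes tested. PP2C.D phosphatases switch the pumps off, and proteins of the SAUR19 subfamily inhibit those phosphatases in auxin-driven growth. Of 9 PP2C.D genes 5 were called higher and 3 lower (median 0.24), led by PP2C-D8 (0.67 ± 0.041, adjusted p = 7.75e-08), PP2C-D9 (0.64 ± 0.059, adjusted p = 2.36e-06) and PP2C-D2 (0.47 ± 0.038, adjusted p = 1.01e-06). The lower ones were PP2C-D1 (-0.31), PP2C-D5 (-0.33) and PP2C-D7 (-0.32), named after their values were seen. PP2C-D1 lost its call with no filter (adjusted p = 0.0707), with no intensity trend (adjusted p = 0.055), and without replicate 1 or 2 of WT_V or replicate 1 or 3 of WT (adjusted p = 0.0554 to 0.0948). The split was 4 higher and 4 lower under median-of-ratios scaling, beside 37.9% higher and 35.5% lower of all genes tested. It was 4 higher and 3 lower after quantile normalization, beside 29.8% higher and 44.9% lower. PP2C-D3 lost its call under both scalings (adjusted p = 0.148 and 0.256), and PP2C-D4 after quantile normalization (adjusted p = 0.158). Of 6 SAUR19 subfamily genes 0 were called higher and 2 lower (median -0.15). They were SAUR21, at 2.68, 2.57 and 2.41 FPKM in WT_V and 3.58, 4.28 and 3.40 FPKM in WT (-0.41 ± 0.091, adjusted p = 0.00169), and SAUR20 (-0.38 ± 0.135, adjusted p = 0.0262). SAUR20 lost its call with no filter (adjusted p = 0.0532) and without replicate 1, 2 or 3 of WT_V or replicate 2 or 3 of WT (adjusted p = 0.0531 to 0.113). All 6 were called lower with quantile normalization, as were 44.9% of all genes tested. That scaling moved genes unequally, with the scarce EXLA3 going from 0.199 to -0.713 and the abundant AHA1 from 0.029 to 0.251. The SAUR19 subfamily genes are short, similar genes at low levels, so their single values are uncertain.

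Of 6 xyloglucan synthesis genes, 5 were called higher and 0 lower (median 0.43). The glucan synthase gene CSLC4 had 11.98, 12.81 and 12.76 FPKM in WT_V and 6.69, 6.11 and 6.30 FPKM in WT (0.87 ± 0.058, adjusted p = 1.78e-07). The xylosyltransferase gene XXT1 differed by 0.62 ± 0.053 (adjusted p = 1.42e-06) and the fucosyltransferase gene FUT1 by 0.44 ± 0.060 (adjusted p = 5.58e-05). XXT2, another xylosyltransferase gene, was not called here (-0.07, adjusted p = 0.0721) but was called lower under both other scalings (-0.24 by median of ratios and -0.12 after quantile normalization). Called higher were 4 genes by median of ratios, where MUR3 lost its call (adjusted p = 0.783), and 3 after quantile normalization, where MUR3 (adjusted p = 0.271) and FUT1 (adjusted p = 0.122) lost theirs. The pathway counts from the FPKM as deposited stand beside 51.9% higher and 24.1% lower over all genes tested. Those by median of ratios stand beside 37.9% higher and 35.5% lower, and those after quantile normalization beside 29.8% higher and 44.9% lower. In these libraries the seed, flower, pollen, fruit and xylem markers were higher in WT_V as well.

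**Figure D5:**
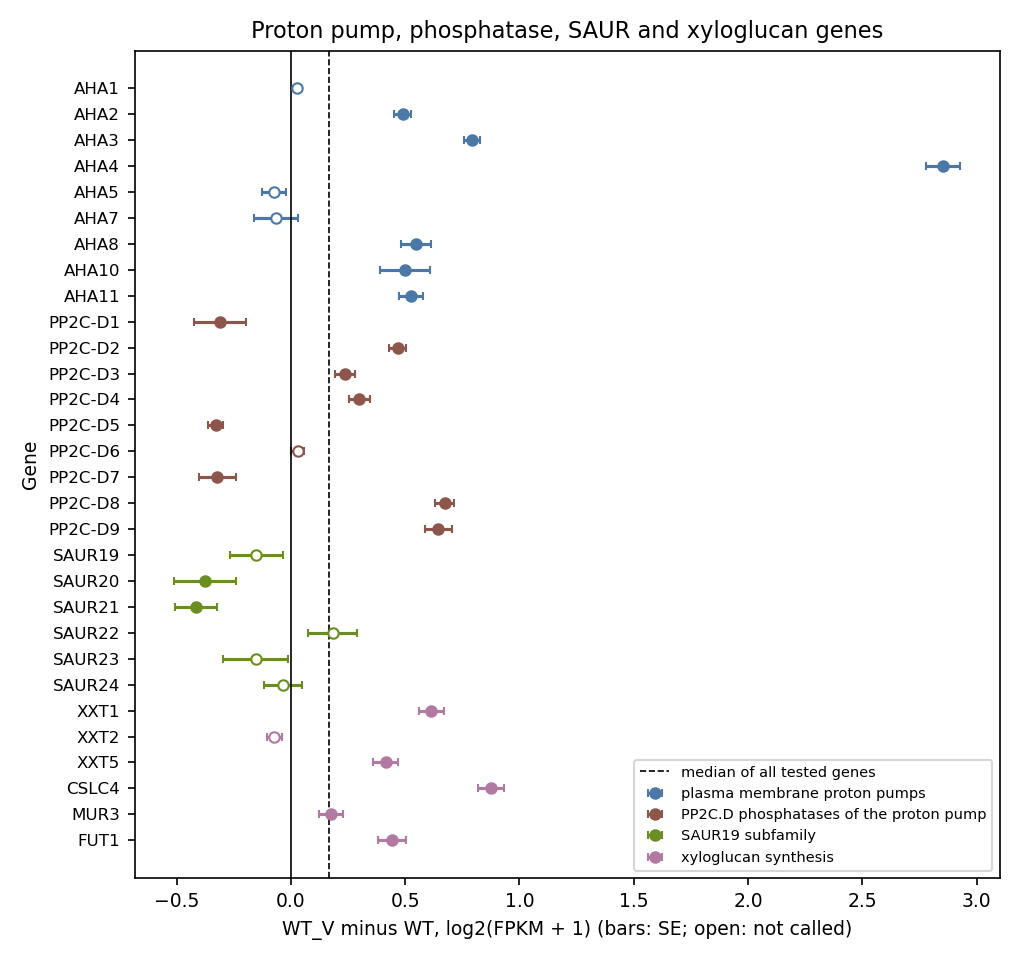
Points give the log2 difference, WT_V minus WT, on the log2(FPKM + 1) scale with SE bars for the tested proton pump, PP2C.D, SAUR19 subfamily and xyloglucan synthesis genes, open where not called, with a solid line at 0 and a dashed line at the median of all genes tested. AHA4 stands alone at 2.85, the SAUR genes lie mostly left of 0, and the PP2C.D genes lie on both sides.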

How the data were processed

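The authors deposited FPKM per gene for 6 libraries, per the file headers. HTSeq 0.6.1, Bowtie2 2.2.3 and TopHat2 2.0.12 are listed, per the submitters' processing notes. Not given in the sources used here are the strand setting, how multi-mapped reads were handled, and the annotation and build used.

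Genes with a mean of at least 1 FPKM entered a limma 3.58.1 fit (R 4.3.3) of log2(FPKM + 1), with a trend of variance on level. Differences are WT_V minus WT, with Benjamini-Hochberg adjustment over all 19144 genes and a threshold of 0.05. This scale understates changes of low genes. The procedure was also run on simulated data, and that outcome is not reported here. Counts came from multiplying FPKM by the TAIR10.1 exon length and the scaling total. They were whole within 0.02 for over 99% of single-transcript genes under 1000 counts (99.02 to 99.25% by library) and for 24 of 35 members, and were not used for the test. Proteins were translated from the longest coding sequence and aligned with MAFFT 7.526. Permutation tests used SciPy 1.17.1.

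The members and gene lists were chosen with earlier results of these data known. Every member was accounted for, with values for those above 0. The pathway lists give up to 3 called genes each with the greatest difference. Also named, after their values were seen, were AHA1, AHA5, AHA10, PP2C-D1, PP2C-D3, PP2C-D4, PP2C-D5, PP2C-D7, XXT2 and MUR3. The alternatives were other pseudocounts, filters and scalings, no trend, a replicate block and leaving out each library.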

Additional observations from a re-analysis of the deposited data

How the results depend on the processing

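Of 236 recomputed differences of single members, 223 kept their direction and their side of the threshold. The exceptions concerned EXPA8, EXPA11, EXLA2 and EXLA3, and the cause was not tested. EXPA8 turned to -0.142 by median of ratios and -0.201 after quantile normalization, and ran from -0.03 to 0.111 as libraries were left out (-0.023 without WT_V replicate 2 and -0.014 without WT replicate 1). EXLA2 (-0.276) and EXLA3 (-0.713) turned under quantile normalization, where 3 members were called lower. Leaving out 1 library gave 13 to 15 members called higher and 0 lower, and 9232 to 9861 genes higher and 4313 to 4431 lower over the table. Quantile normalization gave 5711 genes higher and 8596 lower. Called lower in the 4 pathway lists were 5 genes, and 3 with no filter or a minimum mean of 5 FPKM. They numbered 9 by median of ratios and 12 after quantile normalization. The lists held 9, 9, 6 and 6 tested genes under both scalings, as with the FPKM as deposited. Of all genes tested, 24.1% were called lower with the FPKM as deposited, 35.5% by median of ratios and 44.9% after quantile normalization. The pathway count thus rose where that share rose. With a library left out, 3 to 4 pathway genes were called lower (3 without WT_V replicate 1), while 16 were called higher in each of those 6 fits. The family sum became 454.4 FPKM in WT_V and 267.9 FPKM in WT with median-of-ratios scaling, and 481.5 to 485.4 in WT_V and 251.4 to 254.5 in WT with a library left out.

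Same-numbered libraries did not deviate together (r = -0.0157, -0.0156 and 0.0141 over 19144 genes), and only replicate 3 of WT_V correlated best with its own number. With the replicate block 14 members were called higher and 0 lower, and 9868 genes higher and 4609 lower over the table.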

Other observations

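The 250 bases before the annotated start of each gene were searched on both strands for TGTCTC, the core of the auxin response element, and CACGTG, the G-box, which do not overlap each other. TGTCTC was found before 4 of 35 members (11.4%: EXPA5, EXPA6, EXPA7 and EXPA10) and before 10.95% of 27443 TAIR10.1 genes with a coding sequence. CACGTG was found before 1 member (2.9%, EXPB2) and before 6.49% of all genes. A match is a description of these letters in this window.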
